A study of Homo sapiens with 6 samples.

Results

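The genes described here act around UDP-glucuronate, the activated sugar that glucuronidation enzymes attach to steroids and drugs. They supply it or draw on it, move it or another nucleotide sugar between compartments, or take glucuronides apart again. They were chosen by symbol as PGM1, UGP2, UGDH, UXS1, SLC35D1, SLC35D2, GUSB and AKR1A1, with the brightest array probe set that names that one gene. Of these 8 genes, 7 were measured, among 18404 genes tested in all, and AKR1A1, an aldehyde reductase that acts on free glucuronate, was not analysed here. The study used the established cell line MEC-1, B cells that came from a chronic lymphocytic leukemia (CLL), grown without phenol red or antibiotics in RPMI medium with 10% fetal calf serum. RNA from 3 samples with a lentiviral short hairpin RNA (shRNA) against UGT2B17 was hybridised to 1 Affymetrix array each, beside RNA from 3 samples with a scrambled shRNA. Both groups therefore carried a lentiviral shRNA. The comparison asks which transcripts differ when UGT2B17, a glucuronosyltransferase of androgens and other small molecules, is knocked down.

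UDP-glucuronate is made from glucose in the cytosol. Phosphoglucomutase PGM1 interconverts glucose 6-phosphate and glucose 1-phosphate, UGP2 joins glucose 1-phosphate to UTP to give UDP-glucose, and the dehydrogenase UGDH oxidises UDP-glucose to UDP-glucuronate. UGT enzymes face the lumen of the endoplasmic reticulum, so the sugar nucleotide has to cross that membrane, which SLC35D1 can carry out. Its relative SLC35D2 is a Golgi transporter known to carry UDP-N-acetylglucosamine. UXS1 draws on the same pool by turning UDP-glucuronate into UDP-xylose, the first sugar of most proteoglycan chains, and the lysosomal enzyme GUSB, beta-glucuronidase, cleaves glucuronic acid from glucuronides and from glycosaminoglycans.

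The stretches upstream of the transporter genes SLC35D1 and SLC35D2 are shown because only one of these relatives passed the test below. Each is the 250 bases before the RefSeq gene start on assembly GRCh38.p14, read 5′ to 3′ on the minus strand, at chr1:67054149-67054398 for SLC35D1 and chr9:96383712-96383961 for SLC35D2. Capitals mark GC boxes (GGGCGG on either strand).
SLC35D1: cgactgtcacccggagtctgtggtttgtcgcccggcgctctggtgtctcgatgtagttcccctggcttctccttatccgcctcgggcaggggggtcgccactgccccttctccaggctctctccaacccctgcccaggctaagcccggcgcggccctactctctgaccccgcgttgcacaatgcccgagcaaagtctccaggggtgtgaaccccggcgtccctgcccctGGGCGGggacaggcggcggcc
SLC35D2: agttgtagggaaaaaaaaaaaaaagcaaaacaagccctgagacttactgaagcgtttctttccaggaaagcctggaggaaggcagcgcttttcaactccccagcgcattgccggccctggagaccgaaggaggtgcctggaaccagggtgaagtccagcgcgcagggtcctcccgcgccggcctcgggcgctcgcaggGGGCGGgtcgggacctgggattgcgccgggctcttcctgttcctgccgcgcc
Each window held 1 GC box, as did 42.6% of 35116 RefSeq promoter windows of the same length at least once. The SLC35D1 window also held 1 match to the antioxidant response element core TGACNNNGC, on either strand, which 10.9% of all windows hold and the SLC35D2 window did not. The E-box CACGTG, the CCAAT box (the letters CCAAT), the TATA box TATAAA, the xenobiotic response core GCGTG and the amino acid response core TGATGNAA, searched on both strands, were in neither window; 6.34%, 32.0%, 10.7%, 32.2% and 3.14% of all windows hold them. The E-box and the xenobiotic response core can share letters, and a match is a stretch of letters, not a measured binding site. G and C made up 68.8% of the SLC35D1 window and 62.0% of the SLC35D2 window.

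The deposited values are log2 intensities, and a difference of 1 is a 2-fold difference. Any pair of arrays correlated at 0.991 to 0.996, and scrambled replicate 3 lay furthest from its group mean (0.138 log2 units, root mean square over the tested genes, against 0.077 to 0.112 elsewhere). The labels call the replicates independent but name no separate cultures, so a p-value reflects the spread of these samples alone, which may be technical. How many targeting hairpins or clones were used is not stated in the labels, and lower UGT2B17, other effects of the hairpin and differences between cultures cannot be told apart. Markers of B cells, T and NK cells, myeloid cells, the erythroid and platelet lineages, epithelium and fibroblasts numbered 34. Of these, 1 passed (limma, adjusted p under 0.05), beside 3.61% of all genes. It was the keratin KRT18, at 0.32 ± 0.07 log2 units (SE). The B cell markers averaged 10.4 log2 units on every knockdown array and 10.3 to 10.4 on the scrambled ones. The averages of the other marker lists ran from 5.09 for myeloid to 6.52 for epithelial and fibroblast markers. Single markers departed from these averages. The epithelial marker CDH1 averaged 8.45 with the knockdown and 8.30 with scrambled shRNA, above the B cell marker VPREB3 at 6.68 and 6.42. In bulk RNA a change in cell make-up and a change in RNA per cell cannot be told apart.

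UGT2B17, the target of the shRNA, read 3.19, 3.27 and 3.17 log2 units on knockdown arrays 1 to 3 and 3.95, 3.69 and 3.91 on scrambled arrays 1 to 3. The highest knockdown value was below the lowest scrambled value. It fell by 0.64 ± 0.08 log2 units (SE, n = 3 each; limma, Benjamini-Hochberg adjusted p = 0.00654). The probe set is dim, at percentile 8.02 of all probe sets by mean signal, where background can compress differences. How much of the signal comes from UGT2B17 transcript was not tested.

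Of the 7 measured supply and removal genes, 1 passed the test over all genes and 6 did not. The gene that passed was SLC35D2, lower in the knockdown, a Golgi transporter known to carry UDP-N-acetylglucosamine. The enzymes UGP2 and PGM1 had intervals that left out 0 in opposite directions without passing. Over all genes 3.61% passed (limma, adjusted p under 0.05), with 1.92% higher and 1.69% lower. An unadjusted p under 0.05 was found for 3 of the 7, against 18.2% of all genes. The groups did not overlap for 4 of the 7, of which 3 were lower and 1 higher in the knockdown, against 24.8% of all genes. The median log2 fold change of the 7 genes was −0.03, beside −0.002 over all genes, and their median absolute log2 fold change was 0.14, beside 0.09 over all genes.

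**Figure D1:**
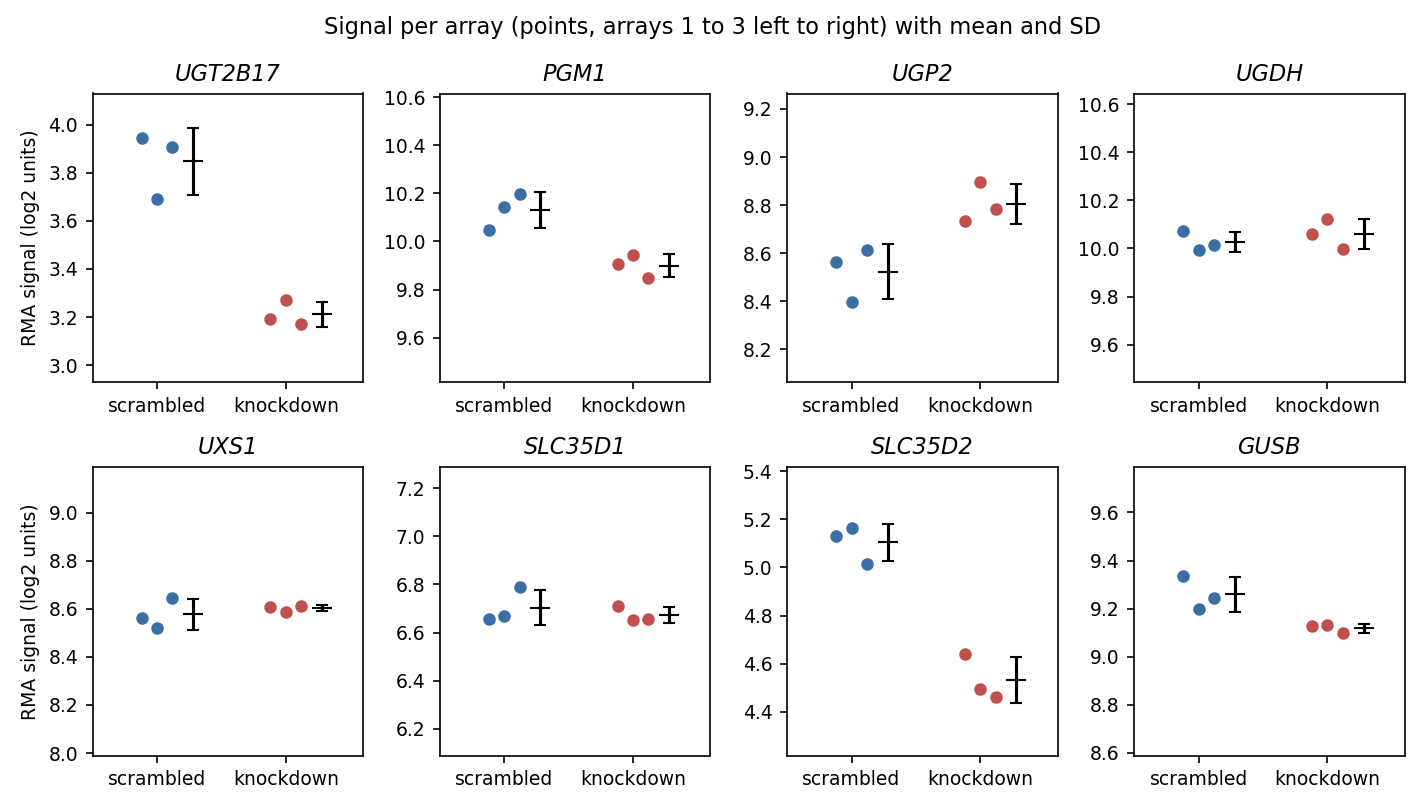
Deposited log2 signal of UGT2B17 and the 7 measured genes on each array (vertical axes in log2 units, each spanning the same range), with blue points for the 3 scrambled arrays, red points for the 3 knockdown arrays, and bars for mean and SD. SLC35D2 lay between 4.46 and 4.64 with the knockdown and between 5.01 and 5.16 with scrambled shRNA, while UGDH, UXS1 and SLC35D1 overlapped between groups.

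The enzymes that lead to UDP-glucose had differences of opposite sign, negative for PGM1 and positive for UGP2, and neither passed the test. PGM1 read 9.91, 9.95 and 9.85 log2 units on the knockdown arrays and 10.05, 10.14 and 10.20 on the scrambled arrays. All knockdown values were below all scrambled values, so the groups did not overlap. The difference was −0.23 ± 0.07 log2 units (SE; 95% interval −0.38 to −0.08), or 85.2% of the scrambled signal (limma, adjusted p = 0.112).

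UGP2 read 8.73, 8.90 and 8.78 log2 units on the knockdown arrays and 8.56, 8.40 and 8.61 on the scrambled arrays. Every knockdown array lay above every scrambled array. The difference was 0.28 ± 0.08 log2 units (SE; 95% interval 0.10 to 0.46), or 1.22-fold higher (limma, adjusted p = 0.103). Within each array UGP2 stood closer to PGM1 in the knockdown: the UGP2 signal minus the PGM1 signal lay between −1.17 and −1.05 on the knockdown arrays and between −1.75 and −1.49 on the scrambled arrays, a shift of 0.51 log2 units. This pair was set side by side after its values were seen, so the shift is a description. With array weights in the fit both enzymes passed, PGM1 at −0.24 (adjusted p = 0.00983) and UGP2 at 0.40 (adjusted p = 0.00221). These weights ran from 0.25 for scrambled replicate 3 to 6.13 for scrambled replicate 2, so that fit leaned on 1 scrambled array. In it 3511 of the 18404 genes passed, against 665 with the settings of the report.

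UGDH, which makes UDP-glucuronate itself, did not differ beyond the spread between arrays. It read 10.06, 10.12 and 10.00 log2 units with the knockdown and 10.07, 9.99 and 10.01 with scrambled shRNA, and the groups overlapped. The difference was 0.03 ± 0.07 log2 units (SE; limma, adjusted p = 0.839). Its 95% interval, −0.11 to 0.18, leaves out a shift as large as the mean differences of PGM1 and UGP2.

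UXS1, the UDP-xylose synthase that draws on UDP-glucuronate, likewise had overlapping groups. Its signal was 8.61, 8.59 and 8.61 log2 units on the knockdown arrays and 8.56, 8.52 and 8.65 on the scrambled arrays. The knockdown arrays lay inside the range of the scrambled ones. The difference was 0.03 ± 0.06 log2 units (SE; 95% interval −0.12 to 0.17; limma, adjusted p = 0.876).

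SLC35D2 fell and had the smallest p of the 7 genes, at rank 99 of all genes tested. The signal was 4.64, 4.49 and 4.46 log2 units on the knockdown arrays and 5.13, 5.16 and 5.01 on the scrambled arrays. All knockdown arrays were low and all scrambled arrays high, with no overlap. SLC35D2 fell by 0.57 ± 0.08 log2 units (SE, n = 3 each; 95% interval −0.74 to −0.40), to 67.3% of the scrambled signal (limma, adjusted p = 0.00696). A larger absolute difference was found in 0.967% of all genes. An exact two-sided permutation test of the 6 arrays gave p = 0.1, its lowest possible value at 3 against 3. The probe set was at percentile 26.3 of all probe sets by mean signal, below the median, and near background a fold change can be compressed. The T and NK cell markers averaged 5.16 to 5.20 log2 units on the knockdown arrays and 5.18 to 5.32 on the scrambled arrays. SLC35D2 lay below these averages of markers of other cell types. How much of its signal comes from its own transcript was not tested. The call held with each array left out in turn, with adjusted p from 0.00651 to 0.0476.

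SLC35D1, the relative of SLC35D2 that carries UDP-glucuronate into the endoplasmic reticulum, read 6.71, 6.65 and 6.65 log2 units with the knockdown and 6.65, 6.67 and 6.79 with scrambled shRNA. The groups overlapped. The difference was −0.03 ± 0.07 log2 units (SE; 95% interval −0.18 to 0.12; limma, adjusted p = 0.861). The interval of SLC35D1 and that of SLC35D2 do not meet. Within arrays, SLC35D2 minus SLC35D1 lay between −2.19 and −2.07 with the knockdown and between −1.77 and −1.50 with scrambled shRNA, a shift of −0.54, given as a description because the pair was set side by side after its values were seen.

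**Figure D2:**
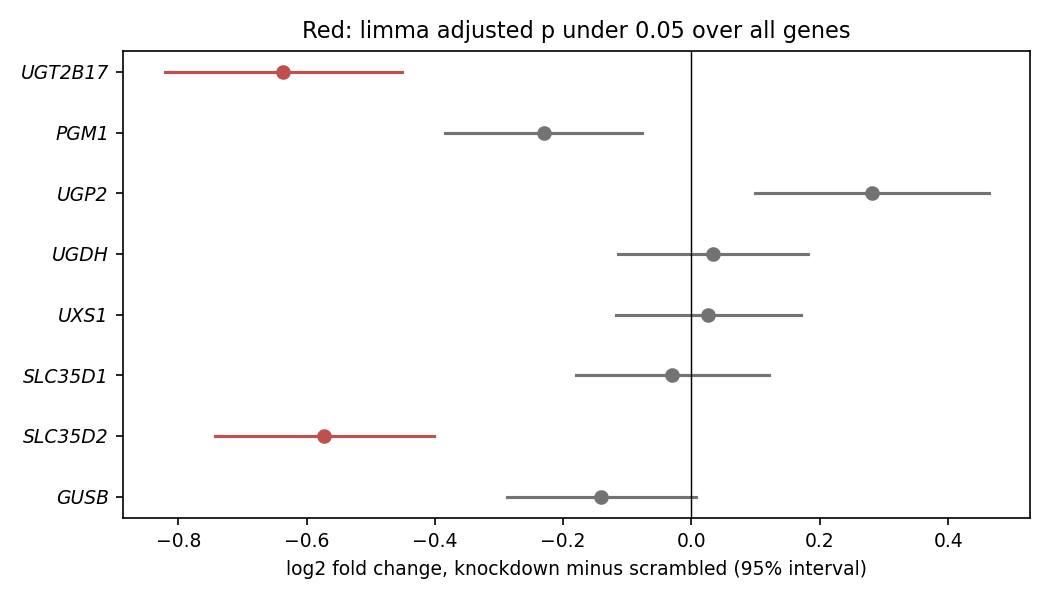
Log2 fold change, knockdown minus scrambled, of UGT2B17 and the 7 measured genes (points) with 95% intervals (lines); red marks a limma adjusted p under 0.05 over all genes. UGT2B17 at −0.64 and SLC35D2 at −0.57 are red, and the intervals of PGM1 and UGP2 lie on opposite sides of 0.

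GUSB, on the removal side, was slightly lower with the knockdown without passing. It read 9.13, 9.13 and 9.10 log2 units on the knockdown arrays and 9.34, 9.20 and 9.24 on the scrambled arrays. The groups did not overlap, but the gap between them was smaller than the range of the scrambled arrays. The difference was −0.14 ± 0.06 log2 units (SE; 95% interval −0.29 to 0.01), or 90.7% of the scrambled signal (limma, adjusted p = 0.300). GUSB has many pseudogenes, and 5 more probe sets name it together with them. On these, the log2 fold change ran from −0.19 to 0.17, 1 of the 5 was below 0 and 0 passed over all deposited probe sets (lowest adjusted p = 0.617), and which of the genes gave that signal cannot be read.

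**Figure D3:**
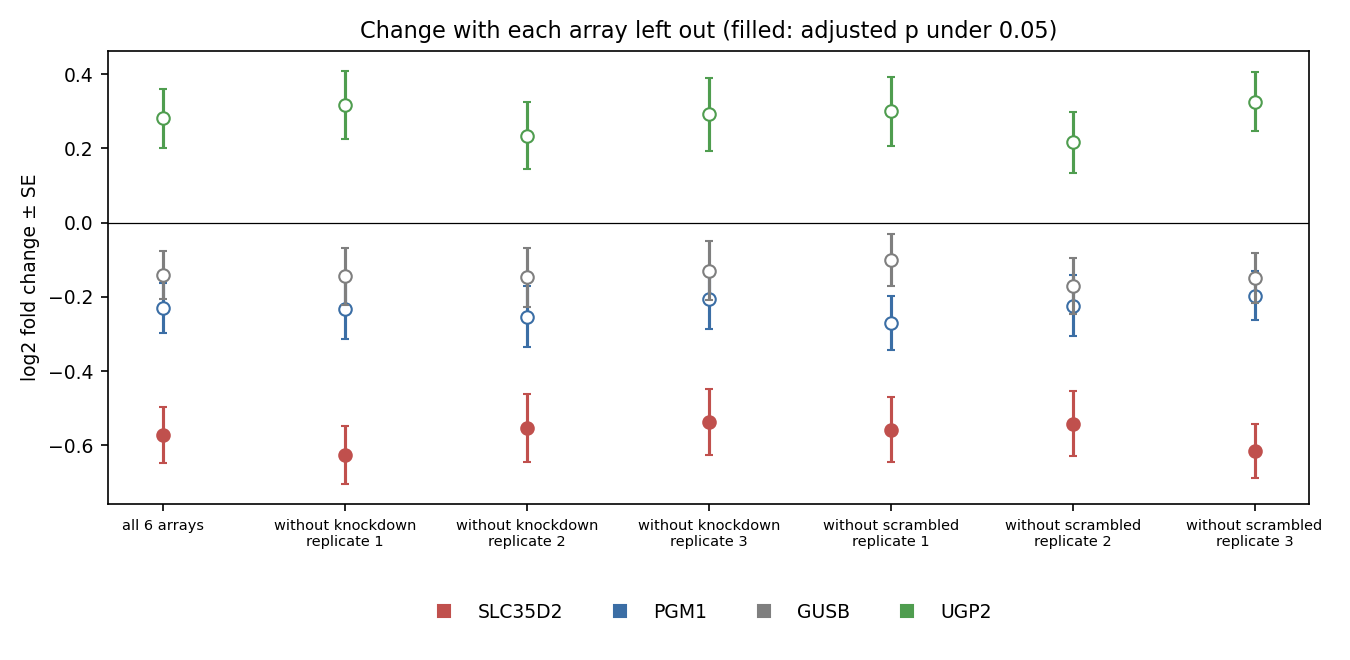
Log2 fold change (vertical axis, with SE bars) of SLC35D2, PGM1, GUSB and UGP2 with all 6 arrays and with each array left out (horizontal axis); filled points have an adjusted p under 0.05. SLC35D2 has filled points throughout, between −0.63 and −0.54, while those of UGP2 are empty, between 0.22 and 0.33, as are those of PGM1, between −0.27 and −0.20.

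The surrounding pathway was read from 7 lists with 147 genes, of which 126 were measured. Over these lists 2 genes rose, 4 fell and 120 did not pass, or 4.76% passed, beside 3.61% of all genes. The genes that fell include UGT2B17, the target of the shRNA; without it 5 of 125 passed, or 4%. The median log2 fold change was −0.01, beside −0.002 over all genes. In the list of other enzymes around glucose 1-phosphate and UDP-glucose, 0 of 23 passed in limma. At an unadjusted p under 0.05 there were 0, beside 18.2% of all genes. The smallest p there belonged to GALM, which interconverts the anomers of galactose, at 0.16 ± 0.09 log2 units (SE), and GBE1, the glycogen branching enzyme, at −0.16 ± 0.10. The list's median was 0.005, and its members ran from −0.16 to 0.16.

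Glycosaminoglycan synthesis, the other large use of UDP-glucuronate, had 1 lower gene and 26 that did not pass among 27 measured (median −0.05). That is 3.7% passing, beside 3.61% of all genes. An unadjusted p under 0.05 was found for 5 of the 27, beside 18.2% of all genes. The lower gene was EXT2, a subunit of the polymerase that adds glucuronic acid to heparan sulfate. EXT2 read 8.28, 8.26 and 8.20 log2 units with the knockdown and 8.51, 8.58 and 8.65 with scrambled shRNA. The groups did not overlap, and EXT2 fell by 0.33 ± 0.07 (SE; limma, adjusted p = 0.0327).

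Lysosomal degradation of glycosaminoglycans, the pathway in which GUSB works, had 1 lower gene and 15 that did not pass among 16 measured (median −0.02). That is 6.25% passing, beside 3.61% of all genes. An unadjusted p under 0.05 was found for 7 of the 16, beside 18.2% of all genes. The lower gene was GLB1, lysosomal beta-galactosidase. GLB1 read 7.59, 7.68 and 7.70 log2 units with the knockdown and 7.99, 8.03 and 8.08 with scrambled shRNA, again without overlap. It fell by 0.38 ± 0.06 (SE; limma, adjusted p = 0.0182).

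The other nucleotide sugar and sulfate donor transporters had 0 of 18 members that passed in limma, beside 3.61% of all genes. At an unadjusted p under 0.05 there were 3, beside 18.2% of all genes, and the list's median was 0.02. The nearest to passing were SLC35B2, a Golgi transporter of the sulfate donor PAPS, at 0.26 ± 0.06 log2 units (SE; adjusted p = 0.0631), and SLC35C1, the Golgi GDP-fucose transporter, at 0.19 ± 0.07 (adjusted p = 0.216). SLC35B2 passed under 5 alternatives: another quantile normalisation (adjusted p = 0.0401), only the brighter genes (0.0323), an intensity trend (0.0393), array weights (0.00252), and without scrambled replicate 3 (0.0485). In the pathway of free glucuronate and pentoses, where AKR1A1 belongs, 0 of 14 passed in limma. An unadjusted p under 0.05 was found for 3 of the 14, against the same 18.2% of all genes. The median was −0.13, and AKR7A2, an aldo-keto reductase, read −0.20 ± 0.07 (adjusted p = 0.166) and KHK, ketohexokinase, −0.20 ± 0.07 (adjusted p = 0.167). Of 9 measured genes of the UGT family, UGT2B17, the target of the shRNA, fell and 8 did not pass (median −0.12). Among these 9, UGT8, UGT3A1 and UGT3A2 are not glucuronosyltransferases and use other sugar donors. An unadjusted p under 0.05 was found for 3 of the 9, beside 18.2% of all genes. Besides UGT2B17, these were UGT2B10 at −0.40 ± 0.15 (SE; limma, adjusted p = 0.213) and UGT8 at 0.32 ± 0.08 (adjusted p = 0.0627). Like UGT2B17, UGT2B10 is dim, at percentile 8.04 of all probe sets, and its groups overlapped.

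The list of glucuronide and organic anion transporters also held those of glucose 6-phosphate and acetyl-CoA. Among its 19 measured genes, 2 rose, 1 fell and 16 did not pass (median 0.03). That is 15.8% passing, beside 3.61% of all genes, and the share counts the glucose 6-phosphate and acetyl-CoA transporters. The list was chosen with earlier results of these data known, so the share is a description. An unadjusted p under 0.05 was found for 4 of the 19, beside 18.2% of all genes. SLCO4C1, an organic anion transporter, read 7.55, 7.53 and 7.65 log2 units with the knockdown and 7.16, 6.98 and 6.97 with scrambled shRNA, and rose by 0.54 ± 0.07 (SE; limma, adjusted p = 0.00815). The other genes that passed do not carry glucuronides: SLC33A1, the acetyl-CoA transporter of the endoplasmic reticulum, rose by 0.67 ± 0.15 (adjusted p = 0.0436), and SLC37A4, the glucose 6-phosphate transporter of the same membrane, fell by 0.33 ± 0.06 (adjusted p = 0.0304). The calls of EXT2, GLB1, SLC33A1 and SLC37A4 were each lost without knockdown replicate 1, 2 or 3 and without scrambled replicate 2 (adjusted p from 0.0676 to 0.171). They were also lost over all deposited probe sets (adjusted p = 0.0993 for EXT2, 0.0687 for GLB1, 0.148 for SLC33A1 and 0.0934 for SLC37A4), and that of SLC33A1 over all single-gene probe sets (0.0511), while that of SLCO4C1 held with each array left out (adjusted p up to 0.0486).

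**Figure D4:**
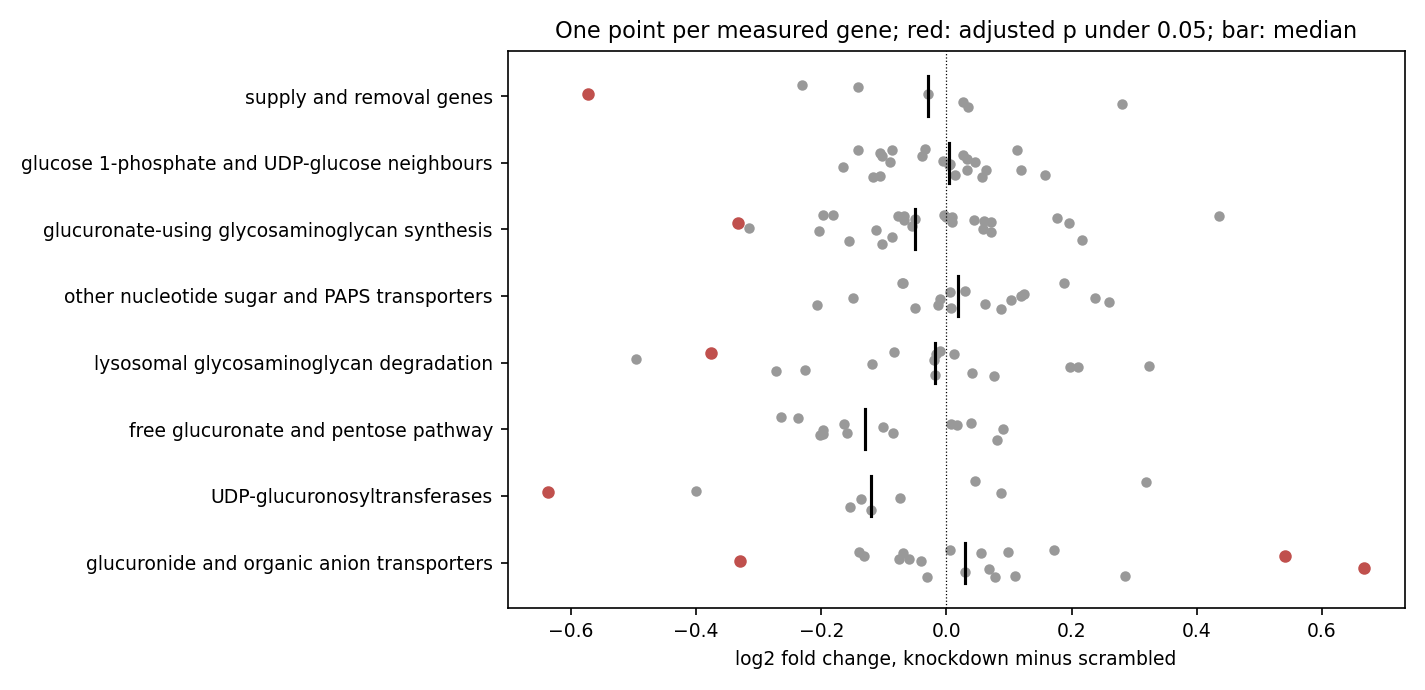
Log2 fold change, knockdown minus scrambled (horizontal axis), of each measured gene in the group described and in the 7 pathway lists (rows); red points have a limma adjusted p under 0.05 over all genes and black bars are medians. All list medians lie between −0.13 and 0.03, and SLC35D2 is the 1 red point in the top row.

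The genes whose pattern over the 6 arrays was most like that of SLC35D2, by the root mean square difference of mean-centred log2 values among all genes tested, were ST14, TEKT4 and PYCARD. ST14, the membrane serine protease matriptase, differed by 0.039 log2 units from it and read 6.53, 6.33 and 6.31 with the knockdown against 7.07, 7.09 and 6.88 with scrambled shRNA. TEKT4, a tektin of cilia and flagella, differed by 0.064 and fell by 0.46 ± 0.08 (SE), and PYCARD, the inflammasome adaptor ASC, differed by 0.071 and fell by 0.46 ± 0.07. Since they were picked for their likeness to a gene that had passed, their own fall follows from the choice and is a description only. The limma adjusted p was 0.00868 for ST14, 0.0175 for TEKT4 and 0.00984 for PYCARD. Over all deposited probe sets ST14 and TEKT4 did not pass (0.0515 and 0.0720). With arrays left out, the call of ST14 was lost without knockdown replicate 2 (adjusted p = 0.0572), that of PYCARD without knockdown replicates 2 and 3 (0.0658 and 0.0573), and that of TEKT4 without these and without scrambled replicate 2 (0.0926, 0.0840 and 0.0803).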

How the data were processed

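Expression was measured on 6 Affymetrix arrays after biotin labelling with a whole-transcript kit, per the labels' protocols. The deposited signals are log2 values made with RMA, per the submitters' processing notes, in a version not stated there. RMA's quantile step hides a shift shared by most genes. They cover 32321 probe sets, span 2.20 to 14.3 and entered unchanged, with groups taken from the labels. Of the probe sets, 19158 name 1 gene in the platform annotation, 1388 name several and 11775 are not listed; the brightest single-gene probe set was kept for each of 18404 genes, with no filter on dim ones. The comparison used limma 3.58.1 under R 4.3.3 (functions lmFit and eBayes, two-sided, no covariate; Benjamini-Hochberg over all genes, threshold 0.05), which was tested on simulated data. Intervals are 95%. The number of arrays limits the precision. The text names the target, the chosen genes, in each list the genes that passed or otherwise the 2 with the smallest p, and the 3 patterns nearest the chosen gene of smallest p. A few other genes are named where they limit a reading. The genes and lists were chosen with earlier results of these data known. Marker lists covered B cells and 4 other classes. Promoter windows are from RefSeq, GRCh38.p14, and all 8 genes had one at the gene start. The array annotation names no genome build. Alternatives were other scalings, filters, eBayes settings, array weights, probe set choices, the replicate block and each array left out.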

Additional observations from a re-analysis of the deposited data

How the results depend on the processing

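SLC35D2 and UGT2B17 passed under all alternatives that tested them. Both lie below the median signal and drop out when only brighter genes are tested, as does SLC35D1. That setting left 0 of the chosen genes still tested passing, and 11 pathway genes. Array weights gave 3511 genes, 3 of the 7 and 30 pathway genes, and all deposited probe sets gave 165 features and 2 pathway genes, against 665 genes and 6 pathway genes with the settings of the report. An adjusted p under 0.1 gave 1207 genes. With an array left out, genes numbered 152 to 759 and pathway genes 2 to 10; the lowest gene counts were 181, 152 and 175 without knockdown replicates 1 to 3 and 188 without scrambled replicate 2. The sign of SLC35D1 (−0.0542 to 0.0121) turned without scrambled replicate 3 and that of UXS1 (−0.0017 to 0.0613) without scrambled replicate 2, neither passing. The cause was not tested. Replicate numbers did not pair the arrays: deviations from the group means correlated at −0.054, −0.067 and −0.033 for numbers 1, 2 and 3, and 0 of 6 arrays correlated best with their own number. With the replicate block 367 genes and the same count of 1 of the 7 passed, SLC35D2 at adjusted p = 0.0188, and EXT2 and SLC37A4 did not pass (0.0917 and 0.0846). The probe sets of UGT2B17 and SLC35D2 are dim, and background can compress differences there, which was not measured. Nor was it tested how much of their signal comes from these transcripts.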

Other observations

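The nearest tested gene on each side of the 7 measured genes, in the order of the RefSeq table, was looked up after the values were seen. Of these 14 neighbours, 1 passed in limma and 13 did not (lowest adjusted p of the rest = 0.216), while 3.61% of all genes passed. The neighbours of SLC35D2 were HSD17B3, a testosterone-forming dehydrogenase, and ZNF367, and neither passed (adjusted p = 0.607 and 0.559). The neighbour that passed was SMIM14, a small membrane protein next to UGDH. SMIM14 read 8.23, 8.31 and 8.07 log2 units with the knockdown and 9.09, 9.10 and 8.56 with scrambled shRNA, and fell by 0.71 ± 0.14 (SE; adjusted p = 0.0324), while UGDH itself differed by 0.03. Its groups did not overlap, but scrambled replicate 3 lay nearer to the knockdown arrays than to the other scrambled arrays, and the call was lost without any single array but that one (adjusted p from 0.0621 to 0.130).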
